A study of Danio rerio with 6 samples.

Results

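The genes described here encode the energy sensor AMP-activated protein kinase (AMPK), its upstream kinase and 3 hypoxia-linked brakes on growth. They are 10 of 19260 genes measured in zebrafish brain, taken by name from the array rows that name 1 gene only: prkaa1, prkaa2, prkab1a, prkab1b, prkab2 and prkag1 (AMPK subunits), stk11 (the kinase LKB1), ddit4 (the protein REDD1), ndrg1a and ndrg1b. Each gene had 1 such row. RNA came from single brains of 6 adult Danio rerio of the Tübingen strain, about 1 year old and of unspecified sex, and each brain was hybridised to its own Affymetrix array (Zebrafish Gene 1.0 ST). The water of 3 fish (hypoxia 1 to 3) had been lowered to 1.20 ± 0.6 mg/l of dissolved oxygen with nitrogen, and they stayed in it for 3 h. The other 3 fish (normoxia 1 to 3) had ambient water with 6.6 ± 0.45 mg/l of oxygen. Whether these errors are SD or SE is not stated in the labels. No allele or transgene is named for either group.

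AMPK is a heterotrimer of a catalytic alpha subunit, a scaffolding beta subunit and a nucleotide-binding gamma subunit. When ATP falls, AMP binds the gamma subunit and LKB1 can phosphorylate and activate the alpha subunit, which slows biosynthesis and promotes ATP production. REDD1 is a short-lived protein that low oxygen, energy stress and glucocorticoids induce in mammals. It restrains the growth-promoting kinase complex mTORC1 through the TSC1/TSC2 complex, on which AMPK also acts. NDRG1 is a cytoplasmic protein that is induced by hypoxia in mammalian cells, and zebrafish carry the paralogues ndrg1a and ndrg1b. AMPK activity is set by phosphorylation and nucleotide binding, neither of which an expression array measures.

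The arrays differed in ways that touch several of the values below. The interquartile range of the log2 gene values was 1.52, 1.66 and 1.87 in hypoxia 1 to 3, against 2.28, 1.52 and 1.99 in normoxia 1 to 3. The array of normoxia 2 correlated at 0.950 to 0.964 with the hypoxia arrays, against 0.918 and 0.938 with normoxia 1 and normoxia 3 (Pearson's r across genes, which are not independent replicates). Markers of neurons (9 measured), radial glia and astroglia (8) and oligodendrocytes and myelin (7) all had mean log2 values above 6. The mean log2 value of 6 pituitary hormone genes was 10.01 in hypoxia 3 and 10.54 in normoxia 3, and 6.42 to 7.26 in the other 4 arrays. Whole brains mix cell types, so fewer cells of a type and less RNA per cell cannot be told apart in any of these values.

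Of the 10 genes, ndrg1b had higher values in every hypoxia brain than in any normoxia brain, and ndrg1a and prkag1 had lower ones. The values of the other 7 genes overlapped between the groups. Such separation was found for 11.3% of all genes tested, 2.33% on the higher side and 9.01% on the lower side. None of the 10 passed a threshold of 0.05 after Benjamini-Hochberg adjustment over all genes (limma, adjusted p = 0.720 to 0.871), where 0.00519% of all genes passed, which is 1 gene. At an unadjusted p under 0.05 there were 1 higher and 2 lower of the 10, against 0.903% and 5.76% of all genes. That split of all genes moved with the scaling, from 174 higher and 1109 lower as deposited to 559 and 492 with equal array medians, 672 and 814 after quantile normalization of the gene values, and 517 and 986 with array spread as a covariate.

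All values below are log2 values, and differences are hypoxia minus normoxia. The background for them was not centred on 0. Over all genes the median difference was -0.08, with 61.0% of the genes lower in hypoxia. Among the 10184 genes whose mean level lay between 7.13 and 9.81, the range of the 10 genes, the median was -0.16 and 75.2% were lower in hypoxia. Of these 10184 genes, 143 were higher and 1204 lower without overlap between the groups. At an unadjusted p under 0.05 (limma), 33 of them were higher and 808 lower. The excess of genes with lower means also depended on the scaling. With equal array medians 40.9% of all genes and 53.3% of those of like level were lower, with medians of 0.06 and -0.02, and after quantile normalization 48.1% and 47.4% were, with medians of 0.01 and 0.02.

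**Figure D1:**
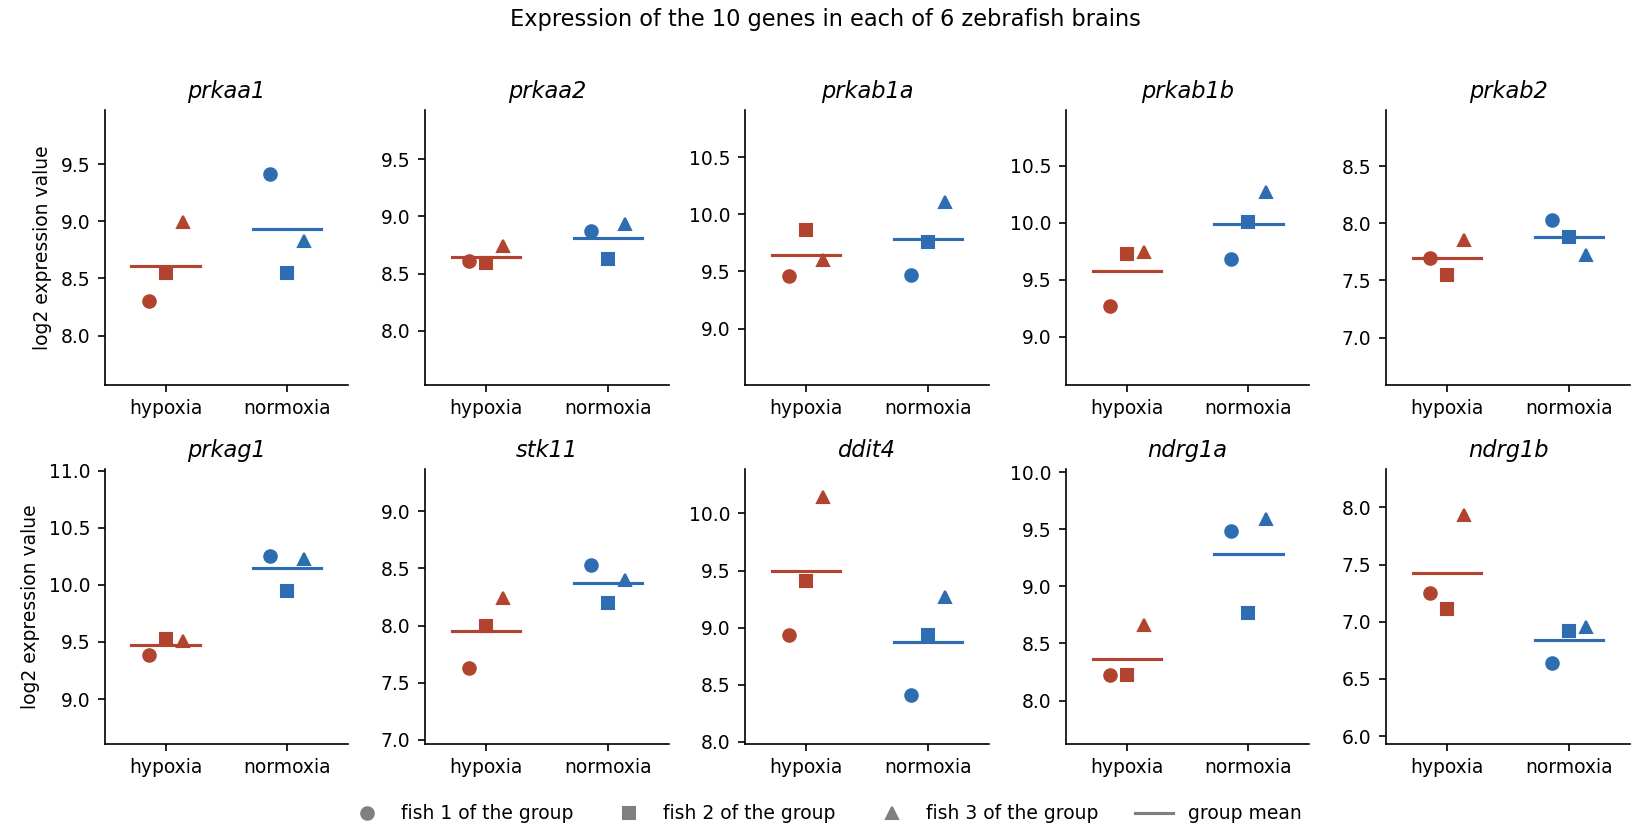
Log2 expression values (y axis) of the 10 genes in each brain, with hypoxia left and normoxia right. Each symbol is 1 fish, bars are group means, and every panel spans the same number of log2 units. The groups are separate for prkag1, ndrg1a and ndrg1b and overlap for the other 7 genes.

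Of the AMPK subunit genes only prkag1 had groups that did not overlap. It encodes the nucleotide-binding gamma 1 subunit. Its values were 9.39, 9.53 and 9.51 in hypoxia brains, against 10.25, 9.95 and 10.23 in normoxia brains. All hypoxia values lay below all normoxia values, with a gap of 0.42 between the groups. The means were 9.48 ± 0.08 in hypoxia and 10.14 ± 0.17 in normoxia (SD, n = 3 fish each). The difference was -0.67 (SE 0.178, 95% interval -1.07 to -0.26, limma adjusted p = 0.720). On the linear scale this is 63.0% of the normoxia level. Ordered by p, prkag1 was gene 96 of 19260. The difference was -0.53 with the array medians made equal and -0.76 without normoxia 2 (limma adjusted p = 0.0940). That array was the control most like the hypoxia arrays, and with any other array left out the adjusted p was 0.686 to 1.0.

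The beta subunits tether alpha and gamma and carry a glycogen-binding module. prkab1b had values of 9.27, 9.73 and 9.74 in hypoxia, against 9.68, 10.01 and 10.27 in normoxia. Its groups overlapped only through normoxia 1, and the difference was -0.41 (SE 0.224, limma adjusted p = 0.725). The paralogue prkab1a had values of 9.46, 9.86 and 9.60 in hypoxia, against 9.47, 9.76 and 10.11 in normoxia. The groups overlapped almost fully, with a difference of -0.14 and a 95% interval of -0.63 to 0.35 (limma adjusted p = 0.871). prkab2, the other beta subunit gene, was 7.70, 7.55 and 7.85 in hypoxia, against 8.03, 7.88 and 7.72 in normoxia. It had a difference of -0.18 with a 95% interval of -0.59 to 0.24 (limma adjusted p = 0.813), and normoxia 3 lay inside the range of the hypoxia fish.

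The catalytic subunits showed small differences that the spread between fish covers. prkaa1, encoding alpha 1, had values of 8.30, 8.55 and 8.99 in hypoxia, against 9.41, 8.55 and 8.83 in normoxia. Its difference of -0.32 (95% interval -0.93 to 0.29, limma adjusted p = 0.774) rested on normoxia 1, and it was -0.08 without that fish. Once array spread (the interquartile range) entered the fit as a covariate it was -0.01. prkaa2, encoding alpha 2, had values of 8.61, 8.59 and 8.74 in hypoxia, against 8.87, 8.63 and 8.93 in normoxia. Its difference was -0.16 with a 95% interval of -0.56 to 0.24 (limma adjusted p = 0.816). Quantile normalization of the gene values gave 0.04.

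stk11, encoding the AMPK-activating kinase LKB1, had values of 7.63, 8.00 and 8.24 in hypoxia, against 8.53, 8.20 and 8.40 in normoxia. Only hypoxia 3 reached into the range of the normoxia fish, just above normoxia 2. The difference was -0.42 (SE 0.211, 95% interval -0.90 to 0.06, limma adjusted p = 0.720), and it was -0.26 without hypoxia 1 or with array spread as a covariate.

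Taken as a group, the mean of each of the 6 AMPK subunit genes was lower in hypoxia, as was that of 75.2% of genes of like level. The median difference of the 6 was -0.25, against -0.16 for genes of like level. That set was matched to the range of all 10 genes, not to the 6. Its median level was 8.08, against 9.24 for the 6, so the 2 medians are not strictly comparable. Outside the 6, the gamma paralogues lay at -0.19 (prkag2a), 0.04 (prkag2b), -0.14 (prkag3a) and -0.04 (prkag3b). The mean over the 6 genes of the value minus the gene's own mean was -0.31, -0.13 and -0.03 in hypoxia, against 0.19, 0.03 and 0.25 in normoxia. The groups were separate on the deposited scale, with hypoxia 3 and normoxia 2 nearest to each other. With array medians made equal, which moved the median of all genes from -0.08 to 0.06, the values were -0.23, -0.04 and 0.01 in hypoxia, against 0.00, 0.04 and 0.21 in normoxia, and the groups overlapped. After quantile normalization they were -0.05, -0.04 and -0.07 in hypoxia, against -0.15, 0.22 and 0.09 in normoxia, and the groups overlapped again. Under these scalings the differences of prkaa2 and prkab1a were 0.04 and 0.08 after quantile normalization and -0.02 and 0.00 with equal medians, while prkag1 kept a difference of -0.44 and -0.53.

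**Figure D2:**
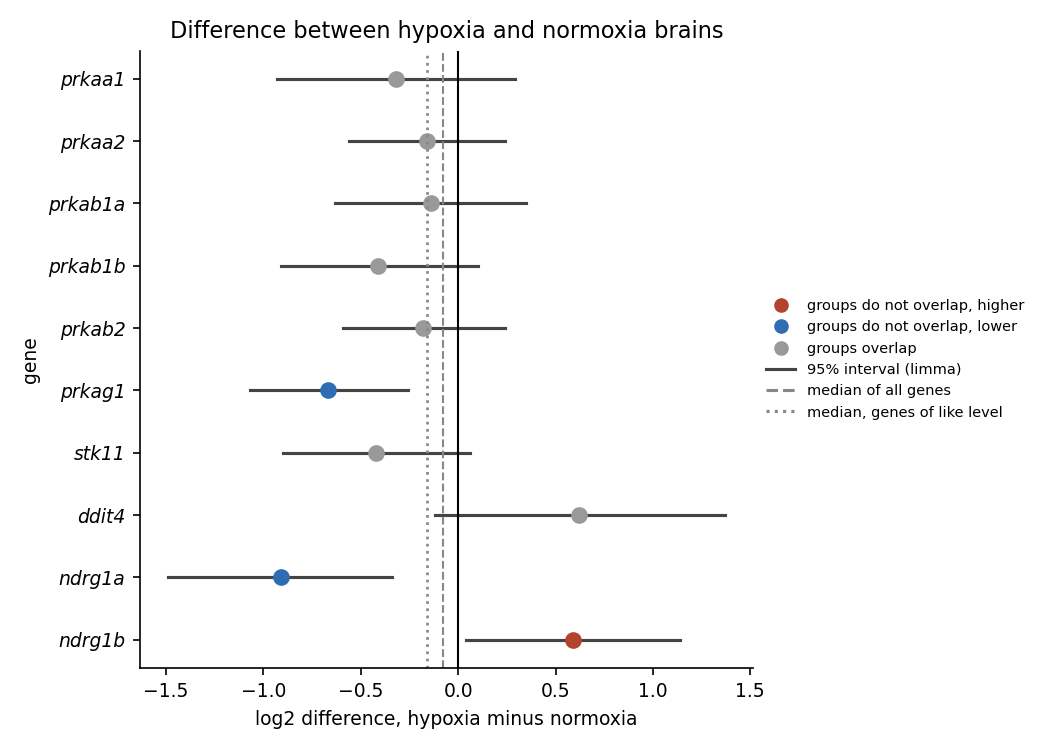
Log2 difference, hypoxia minus normoxia (x axis), for each gene (y axis), with its 95% interval from limma. Dashed and dotted lines mark the medians of all genes (-0.08) and of genes of like level (-0.16). Intervals of prkag1, ndrg1a and ndrg1b exclude 0, and no gene passed after adjustment over all genes.

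ddit4 had the highest mean difference of the 10 genes. Its values were 8.94, 9.41 and 10.14 in hypoxia, against 8.41, 8.94 and 9.27 in normoxia. The groups overlapped, since normoxia 3 lay above hypoxia 1, and hypoxia 1 equalled normoxia 2. The means were 9.50 ± 0.60 in hypoxia and 8.87 ± 0.43 in normoxia (SD, n = 3 fish each). The difference was 0.62 or 1.54-fold (SE 0.329, 95% interval -0.12 to 1.37, limma adjusted p = 0.720). Hypoxia 3 and normoxia 1 decided much of it. The difference was 0.30 without hypoxia 3, 0.39 without normoxia 1 and 0.90 without hypoxia 1. In each group ddit4 was highest in the fish with high pituitary hormone transcripts, as were ndrg1a, ndrg1b, prkaa2 and prkab1b. Without both of these fish the difference was 0.50, an alternative chosen after seeing the data. REDD1 is also a glucocorticoid-induced protein in mammals, so 3 genes that glucocorticoids induce were set beside it after their values were seen. The transcription factor gene klf9 had values of 10.77, 11.82 and 11.89 in hypoxia, against 8.28, 11.39 and 10.37 in normoxia. fkbp5, encoding a chaperone of the glucocorticoid receptor, was 10.31, 10.72 and 11.22 in hypoxia, against 7.27, 10.43 and 10.29 in normoxia. Both were lowest in normoxia 1, as ddit4 was, while tsc22d3 was 10.82 in normoxia 1 and 10.52 to 11.18 in the other fish. The part of glucocorticoid signalling in the ddit4 values was not tested.

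The ndrg1 paralogues lay on opposite sides. ndrg1a had values of 8.22, 8.22 and 8.66 in hypoxia, against 9.48, 8.77 and 9.59 in normoxia. All hypoxia values lay below all normoxia values, and the gap between hypoxia 3 and normoxia 2 was 0.11. The means were 8.37 ± 0.25 in hypoxia and 9.28 ± 0.45 in normoxia (SD, n = 3 fish each). The difference was -0.91 (SE 0.256, 95% interval -1.49 to -0.34, limma adjusted p = 0.720), or 53.1% of the normoxia level. By p it was gene 124 of 19260. Without normoxia 2 the difference was -1.17 (limma adjusted p = 0.0836), and with any other array left out the adjusted p was 0.686 to 1.0. Leaving out normoxia 2 lowered the adjusted p of each of the 10 genes, to 0.188 for ndrg1b and 0.195 for stk11 (limma). The covariate for array spread gave -0.65. Endothelial markers were also separate between the groups. Their mean log2 value over 10 markers was 7.46 to 7.47 in hypoxia and 7.55 to 7.74 in normoxia. Of the 10, 7 had lower means in hypoxia, 5 of them without overlap, and pecam1a (0.38) and egfl7 (0.08) were on the higher side without overlap. Among all genes 9.01% were lower and 2.33% higher without overlap. The summed linear signal of the endothelial markers was 1840 to 1870 in hypoxia and 2040 to 2360 in normoxia, and none of the 10 had a mean below 6. Array medians over all genes were separate as well, at 7.33, 7.32 and 7.38 in hypoxia, against 7.60, 7.40 and 7.45 in normoxia. Medians over all array rows overlapped, at 6.59, 6.54 and 6.45 in hypoxia, against 6.28, 6.60 and 6.38 in normoxia. The marker means were not rescaled for either. Radial glia and astroglia markers had a median difference of -0.59 (7 of 8 lower) and microglia and macrophage markers one of -0.41 (8 of 9 lower), against -0.27 for endothelium. Their mean log2 values overlapped, at 9.91, 10.42 and 10.33 in hypoxia and 10.74, 10.15 and 11.16 in normoxia for radial glia, and 7.96, 7.88 and 8.22 in hypoxia and 8.53, 7.86 and 8.87 in normoxia for microglia. Within normoxia, fish 1 and 3 were high and fish 2 low in both lists, as for ndrg1a. The array interquartile range, at 2.28, 1.52 and 1.99 in normoxia 1 to 3, ran the same way. Neuron markers (11.23, 10.47 and 10.90 in normoxia 1 to 3) had this pattern too. So did markers of oligodendrocytes and myelin (9.77, 9.15 and 9.79) and of pericytes and smooth muscle (7.97, 7.57 and 8.05). Blood cell markers (6.52, 7.20 and 6.55) and skeletal muscle markers (6.82, 7.44 and 6.41) ran the other way, with normoxia 2 the highest. The part of these markers in the result was not tested.

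ndrg1b had values of 7.25, 7.11 and 7.93 in hypoxia, against 6.64, 6.92 and 6.95 in normoxia. All hypoxia values lay above all normoxia values, with a gap of 0.16. The means were 7.43 ± 0.44 in hypoxia and 6.84 ± 0.17 in normoxia (SD, n = 3 fish each). The difference was 0.59 or 1.51-fold (SE 0.244, 95% interval 0.04 to 1.14, limma adjusted p = 0.720). Hypoxia 3 was the highest, and without it the difference was 0.34. Without both fish with high pituitary hormone transcripts it was 0.40. A separate array row names ccn4b and ndrg1b together and was left out of the gene value. It had values of 6.49, 6.26 and 6.06 in hypoxia, against 6.20, 6.16 and 5.78 in normoxia, which overlapped (difference 0.22, limma adjusted p = 0.871 over all rows).

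Because a shift common to an array cancels within a fish, the paralogues were also compared as within-fish differences. A difference in spread between arrays does not cancel in this way. ndrg1a minus ndrg1b was 0.97, 1.11 and 0.73 in hypoxia, against 2.84, 1.85 and 2.64 in normoxia. The groups were far apart, with means of 0.94 ± 0.19 in hypoxia and 2.44 ± 0.52 in normoxia (SD, n = 3 fish each). The difference of change between the paralogues was -1.51 (SE 0.322, exact two-sided permutation p = 0.1, adjusted over 3 pairs 0.15), where 0.1 is the smallest p that 3 against 3 fish can give. Each of these paralogues was already without overlap, on opposite sides. The separation of their difference and its p were thereby fixed in advance and add no support. The difference of change was between -1.80 and -1.31 with 1 fish left out, and -1.34 after quantile normalization of the gene values. prkab1a minus prkab1b was 0.19, 0.13 and -0.14 in hypoxia, against -0.21, -0.25 and -0.16 in normoxia. These groups were separate as well, by 0.27 (SE 0.105, exact permutation p = 0.1, adjusted 0.15), although hypoxia 3 lay next to normoxia 3. prkaa2 minus prkaa1 was 0.31, 0.04 and -0.25 in hypoxia, against -0.54, 0.08 and 0.10 in normoxia, with overlapping groups (difference 0.15, SE 0.265, exact permutation p = 0.7).

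**Figure D3:**
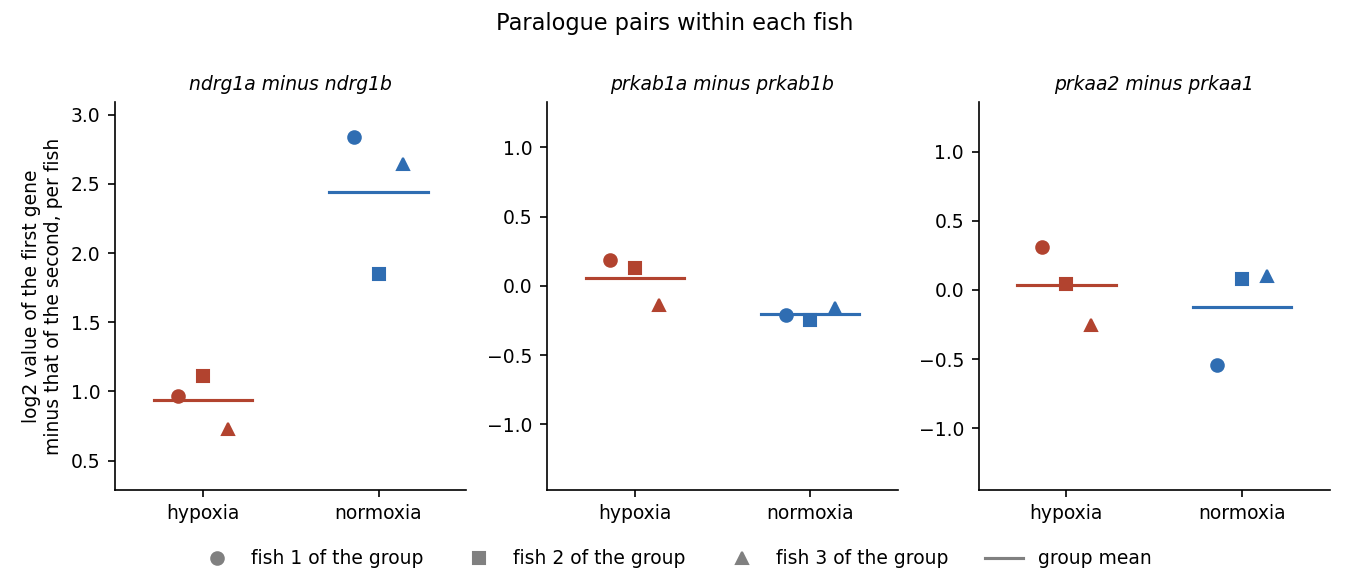
Log2 value of one paralogue minus the other within each fish (y axis), for 3 pairs, with hypoxia left and normoxia right and bars at group means. The hypoxia fish lie between 0.73 and 1.11 for ndrg1a minus ndrg1b and the normoxia fish between 1.85 and 2.84, whereas prkaa2 minus prkaa1 overlaps.

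The genes whose pattern over the 6 arrays was most like ndrg1a were mcee (Pearson's r = 0.999), cgref1 (0.996), rab20 (0.996), serpinh1a (0.996) and gbe1b (0.994). mcee encodes methylmalonyl-CoA epimerase, serpinh1a a collagen chaperone and gbe1b the glycogen branching enzyme. Their log2 differences ran from -0.88 for serpinh1a to -0.41 for gbe1b. With 6 arrays such values are common, and 929 genes had r of at least 0.9 with ndrg1a, prkaa2 (0.946) and prkag1 (0.941) among them. The genes most like ddit4 were lgals4 (0.996), chac1 (0.992), usp2b (0.977), rbp4 (0.973) and iqcb1 (0.970), with log2 differences of 0.24 to 0.43. chac1 encodes an enzyme that degrades glutathione and rbp4 a retinol carrier. For ddit4 35 genes had r of at least 0.9, and ndrg1b was at 0.894, while ndrg1a was at -0.332. These values describe likeness over arrays that share the group difference and the array spread.

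Other genes of the pathway were measured as lists. Of 104 measured genes of AMPK and mTORC1 signalling beside the 10, NDRG paralogues and SGK kinases included, none passed over all genes (limma). Means in hypoxia were higher for 34 and lower for 70 (67.3%), against 61.0% lower among all genes and 75.2% at the level of the 10. An unadjusted p under 0.05 (limma) was found for 2 higher and 5 lower, against 0.903% and 5.76% of all genes. The median difference of the 104 was -0.12. The groups did not overlap in 10 of them (9.62%), against 11.3% of all genes.

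Of 11 measured gamma paralogues, LKB1 partners and other upstream kinases, 2 had higher and 9 lower means, with a median of -0.14. LKB1 works in a complex with the pseudokinase STRAD and the scaffold MO25. cab39l, encoding an MO25 protein, was 10.15, 10.96 and 11.01 in hypoxia, against 11.57, 10.99 and 11.13 in normoxia (difference -0.52, limma adjusted p = 0.720). strada had a difference of -0.60 (adjusted p = 0.736) and cab39 one of -0.38 (adjusted p = 0.763), and for all 3 genes the groups overlapped. The 16 measured AMPK-related kinases, most of which LKB1 also activates, were evenly divided at 8 higher and 8 lower, with a median of 0.01. brsk1a, a kinase of neuronal polarity, had non-overlapping groups at 7.47, 7.23 and 7.40 in hypoxia, against 8.16, 7.60 and 7.66 in normoxia (difference -0.44, limma adjusted p = 0.720). sik2a had a difference of -0.40 and nuak2 one of -0.25, with overlap.

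Among AMPK targets 14 of 23 had higher and 9 lower means, with a median of 0.08. The median was -0.08 for all genes and -0.16 for genes at the level of the 10. These are on the deposited scale, and equal array medians moved the 2 background medians to 0.06 and -0.02. gys1, encoding glycogen synthase, which AMPK inhibits, was 8.53, 8.70 and 9.02 in hypoxia, against 9.50, 9.01 and 9.25 in normoxia (difference -0.50, limma adjusted p = 0.720). Hypoxia 3 lay just above normoxia 2. foxo3b, encoding a stress-responsive transcription factor, was 9.52, 9.56 and 9.81 in hypoxia, against 9.48, 9.19 and 9.24 in normoxia, without overlap (difference 0.33, limma adjusted p = 0.729). txnipb, encoding a thioredoxin-binding protein that restrains glucose uptake in mammals, had a difference of 0.54 (limma adjusted p = 0.720), with normoxia 2 at 6.07 inside the hypoxia range of 5.71 to 6.13. This gene was dim, with a mean log2 value of 5.72 over all arrays, under the dim limit of 6.

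REDD1 restrains mTORC1. The list of 34 genes of mTORC1, its activators and its brakes also holds genes of mTORC2. In it, 5 genes had higher and 29 lower means, with a median of -0.22. The kinase gene mtor itself had a difference of 0.02 and its partner rptor one of -0.03. The Ragulator complex anchors mTORC1 at the lysosome. Its subunit gene lamtor5 was 8.50, 8.92 and 8.94 in hypoxia, against 9.46, 9.30 and 9.37 in normoxia (difference -0.59, SE 0.192, limma adjusted p = 0.720). lamtor4 (-0.48) and mapkap1 (-0.51), which encodes a subunit of mTORC2, also had groups that did not overlap. The genes of TSC1/TSC2 lay between -0.29 for tsc1b and -0.07 for tsc2, and the stress-induced sestrin genes between -0.22 for sesn3 and -0.14 for sesn1.

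Of 12 mTORC1 output genes, 3 had higher and 9 lower means, with a median of -0.27. They include the translation repressors of the 4E-BP family, which mTORC1 inactivates. eif4ebp3l was 7.84, 8.19 and 8.85 in hypoxia, against 7.32, 7.55 and 7.79 in normoxia (difference 0.74, SE 0.271, limma adjusted p = 0.720). Its groups did not overlap, nor did those of eif4ebp1, on the opposite side, with 7.50, 7.53 and 7.77 in hypoxia and 8.03, 7.99 and 7.83 in normoxia (difference -0.35). tfeb, encoding a lysosome-biogenesis factor, had a difference of -0.67 with overlap.

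The remaining NDRG paralogues lay closer to 0 than ndrg1a and ndrg1b, at -0.38 for ndrg3a, -0.12 for ndrg3b, -0.09 for ndrg4 and -0.02 for ndrg2. SGK kinases phosphorylate NDRG1 in mammals. sgk3 was 9.27, 9.30 and 9.23 in hypoxia, against 8.97, 8.85 and 8.83 in normoxia, without overlap (difference 0.38, SE 0.167, limma adjusted p = 0.720), while sgk1 had a difference of -0.19 and sgk2b one of 0.29. Of 19 other hypoxia-induced genes 6 had higher and 13 lower means, with a median of -0.18. The lower share was 68.4%, against 61.0% of all genes and 75.2% at the level of the 10. The glucose transporter gene slc2a1a stood on the side of ndrg1a, at 8.96, 9.43 and 9.50 in hypoxia, against 9.67, 10.20 and 10.33 in normoxia (difference -0.77, limma adjusted p = 0.720). pfkfb4b, a regulator of glycolysis, stood on the side of ddit4 and ndrg1b, at 8.38, 8.47 and 8.84 in hypoxia, against 7.67, 8.21 and 7.94 in normoxia (difference 0.62, limma adjusted p = 0.720). For igfbp1a, a growth-factor binding protein gene, the groups overlapped.

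**Figure D4:**
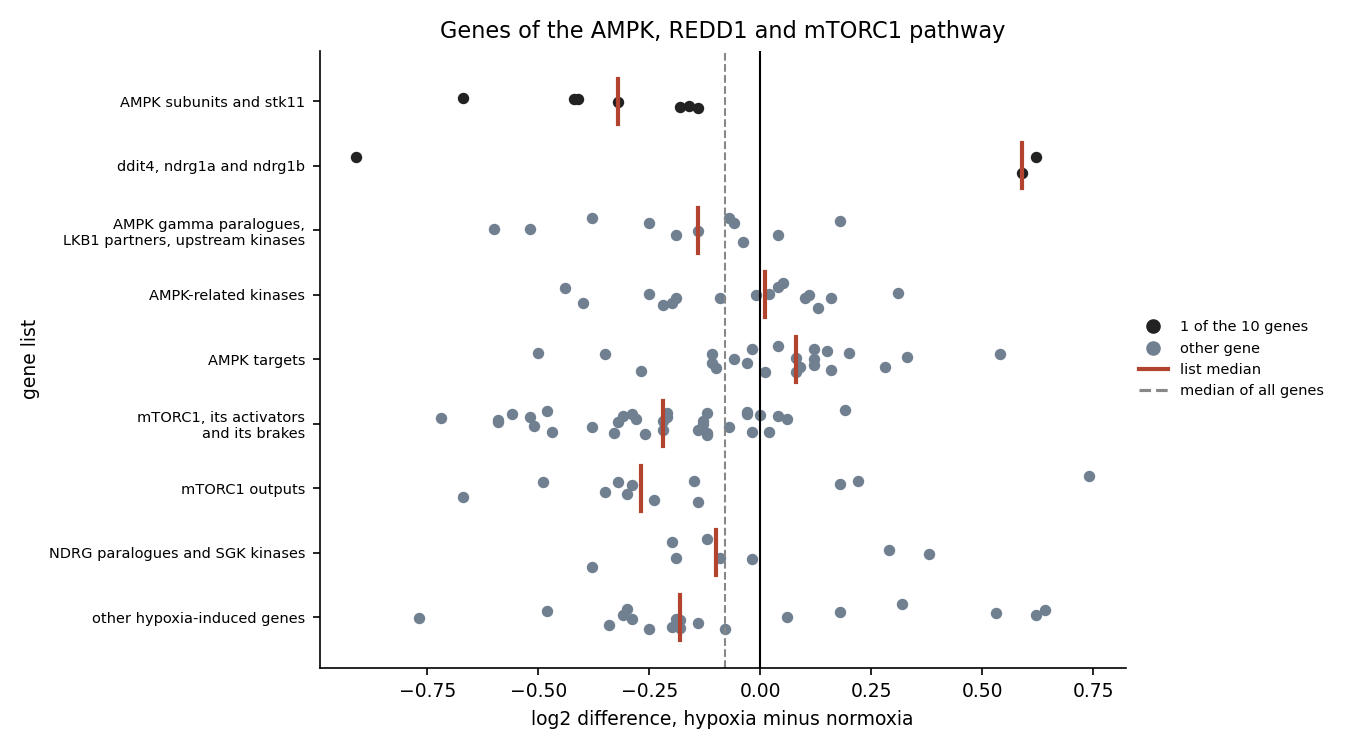
Log2 difference, hypoxia minus normoxia (x axis), of each measured gene in the lists (y axis). Points are genes, red bars list medians and the dashed line the median of all genes (-0.08). The medians of the mTORC1 list (-0.22) and its outputs (-0.27) lie left of that line and those of AMPK targets (0.08) and AMPK-related kinases (0.01) right of it. Genes at the level of the 10 had a median of -0.16, which is not drawn.

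Leaving out 1 fish moved ddit4 between 0.30 and 0.90, ndrg1a between -1.17 and -0.76 and prkag1 between -0.76 and -0.61. The plot of the settings sets these ranges beside the rescaled values, in which prkag1, ndrg1a, ddit4 and ndrg1b stayed clear of 0.

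**Figure D5:**
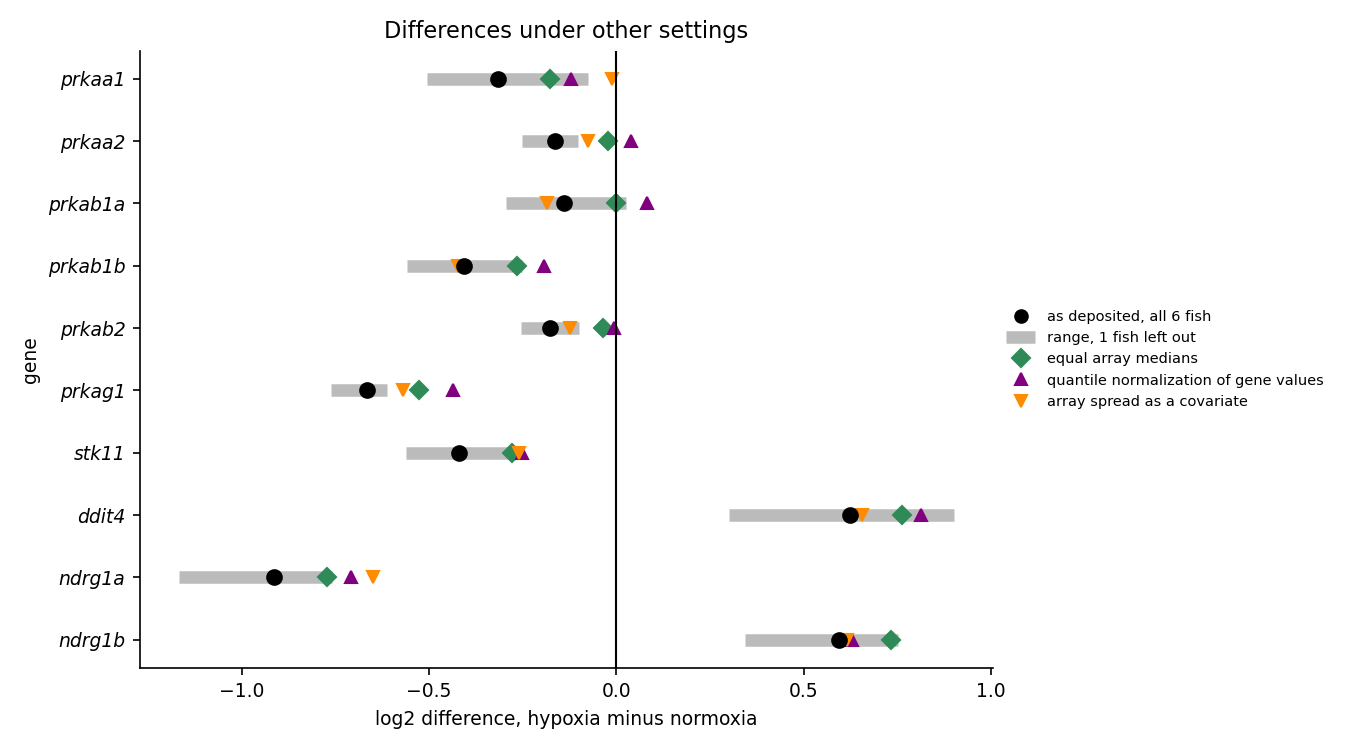
Log2 difference of each gene (y axis) under other settings (x axis), with grey bars for the range when 1 fish is left out. Values of prkag1, stk11, prkab1b, prkaa1, prkab2 and ndrg1a stay below 0 and those of ddit4 and ndrg1b above 0 in all settings drawn. Of these, prkab2 nearly reaches 0 after quantile normalization (-0.007) and prkaa1 with array spread as a covariate (-0.01). prkaa2 and prkab1a cross 0 or reach it.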

How the data were processed

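The deposited values are log2 values, as judged from their range of 1.62 to 14.34, which the authors had quantile normalized after RMA background correction, per the series' design text. The deposited arrays nevertheless keep unequal medians (6.28 to 6.60 over all rows) and unequal spread. Expression Console and RMA are the tools in the submitters' processing notes, without versions. Of 75212 array rows, 20806 named 1 gene. Entrez identifiers served to update symbols, and rows of a gene were averaged, giving 19260 genes. Array rows of different genes have no common scale, so no gene's level was set against another's, and mean signal served only to pick genes of like level, to set a dim limit and to sum markers. The test over all genes used limma (version 3.58.1, R 4.3.3, lmFit and eBayes, 6 arrays, no covariate, no filter). P-values were Benjamini-Hochberg adjusted across the 19260 genes, with 0.05 as threshold. The procedure was tested on simulated data. Paralogue pairs were compared by exact permutation over fish. Precision is limited by 3 fish per group.

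The genes and lists were chosen with earlier results of these data known. Text names all 10 genes, the 3 genes of smallest p in each other list, and the 5 genes most like ndrg1a and ddit4. Some list members were named after their values were seen (prkag2a, prkag2b, prkag3a, prkag3b, mtor, rptor, tsc1b, tsc2, sesn1, sesn3, ndrg2, ndrg3b, ndrg4, sgk1). Each array left out, a replicate block, other scalings, array spread as a covariate, other moderation, a filter on dim genes and all rows were the alternatives.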

Additional observations from a re-analysis of the deposited data

How the results depend on the processing

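None of the 10 genes passed the threshold under any alternative run. Their adjusted p (limma) was at least 0.0836 in the alternatives other than the filter on dim genes and all rows. In those no gene passed, and the p of the 10 genes was not tabulated. With 1 fish left out the log2 differences ran from -0.51 to -0.08 for prkaa1, -0.25 to -0.10 for prkaa2, -0.295 to 0.025 for prkab1a, -0.56 to -0.25 for prkab1b, -0.255 to -0.10 for prkab2, -0.76 to -0.61 for prkag1, -0.56 to -0.26 for stk11, 0.30 to 0.90 for ddit4, -1.17 to -0.76 for ndrg1a and 0.34 to 0.75 for ndrg1b. A replicate block, the brightest row and other moderation leave these estimates as they are. Under the other 4 alternatives 36 of 40 values kept their sign. The exceptions were prkaa2 after quantile normalization (0.0396) and prkab1a after quantile normalization (0.0816), with equal array medians (0.00) and without both replicate 3 fish (0.045, chosen after seeing the data), and the cause was not tested. The change of ndrg1a minus ndrg1b ran from -1.80 to -1.31, that of prkab1a minus prkab1b from 0.20 to 0.37 and that of prkaa2 minus prkaa1 from -0.0567 to 0.295 with 1 fish left out. The count of genes past the threshold (limma) was 1, and 0 to 17 with 1 fish left out. The 17 came without normoxia 2, beside 4747 genes at an unadjusted p under 0.05 (limma). The 0 stood beside 507 to 1335 such genes. The count past the threshold was 2 after quantile normalization. It was 0 with an intensity trend and robust moderation (1342 unadjusted), among genes with a mean above 6 (1255), over all rows (3516) and without both replicate 3 fish (585). Deviations from the group mean correlated at -0.34, 0.10 and 0.20 between fish with the same replicate number. Hypoxia 1 and hypoxia 3 did not correlate best with their own number. With 3 fish per group such deviations are tied to one another, so they cannot exclude a pairing or a shared batch. Both replicate 3 fish had high pituitary hormone transcripts. With a replicate block 1 gene passed and the differences of the 10 genes stayed as reported. Paired by replicate number, ndrg1a minus ndrg1b was -1.51 (exact sign-flip permutation p = 0.25), where 0.25 is the smallest p that 3 pairs can give. Both paralogues were already without overlap on opposite sides, so this p was fixed in advance and adds no support.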
